A study of Sus scrofa with 3 samples.

Results

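The genes described here are 10 antiviral effectors of the interferon response, OAS1, OAS2, OASL, MX1, MX2, RSAD2, ISG15, IFITM1, IFI44 and PARP14, among 5555 genes that could be named on a porcine expression array. They were taken as all non-control probes whose gene name, accession or description gives one of these genes, which made 24 of 43603 probes. RSAD2 is listed on the array under its older pig name IRG6, and 1 of the 6 OAS2 probes carries the gene only in its description. The genes were chosen with their values on these arrays already known, so the levels and differences below are a description and support no claim about how the genes were picked.

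Interferons are secreted proteins that cells make after sensing microbial nucleic acids or membrane components. Type I and type III interferons bind receptors that signal through JAK kinases to transcription factors that switch on the interferon-stimulated genes. The effectors among them act against viruses at different steps: OAS enzymes sense double-stranded RNA, Mx GTPases trap viral components, and IFITM proteins hinder entry at membranes. In the gut epithelium this programme is part of the first response to enteric microbes.

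RNA came from PIE cells, a non-transformed cultured line started from the intestinal epithelium of an unsuckled newborn pig. All cultures grew for 3 days on collagen-coated plates and were exposed for 12 h to ETEC PAMPs, microbial molecular patterns from the diarrhoea-causing enterotoxigenic Escherichia coli. The ETEC group received control medium before the challenge. The TL2937+ETEC group was first kept for 48 h with Lactobacillus jensenii TL2937, and the TL2766+ETEC group with Lactobacillus plantarum TL2766, and the bacteria were washed off before the challenge. Each group had 1 culture on 1 array. Resting cells that never met ETEC PAMPs were not analysed here, so the data say nothing of how far the challenge itself moved these genes.

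With 1 array per group there was no replicate check, and nothing below carries a p-value or a standard error. The 3 arrays shared 1 slide, each at its own position, so effects of position, of the single culture and of the treatment cannot be told apart. The 75th percentile of intensity was 459 to 503, and 60.9% to 62.5% of gene spots carried the scanner's flag for a signal well above background. Over 25 to 27 probes with repeat spots, the median standard deviation of a log2 difference was 0.13 to 0.15, depending on the comparison, and the highest was 0.49. These figures cover spots on an array, not cultures, and the number of arrays limits the precision. The label of the cells was set against defining markers, and the epithelial markers on the array did not bear it out. Of 5 epithelial markers on the array, EPCAM (18 probes) and KRT18 were not well above background on any array, and the summed scaled intensity of the 5 was 62.2 to 74.7. CDH1, KRT8 and VIL1 were near background, with 17.2, 19.9 and 21.5 on the ETEC array. CDH1 was not well above background on the TL2766+ETEC array, nor VIL1 on the TL2937+ETEC array. The endothelial markers PECAM1 and CDH5 were at 84031 to 86702 and 55877 to 60380. The third endothelial marker, VWF, was at 13.8 to 22.7, and the 3 endothelial markers summed to 140631 to 147105. The 4 leukocyte markers summed to 652 to 770, of which CD14 made 623 to 741, and PTPRC was not well above background on any array. Of 3 mesenchymal markers, whose summed scaled intensity was 44138 to 56294, ACTA2 was at 53721 without lactobacilli, 41882 with TL2937 and 47431 with TL2766. The other mesenchymal markers were lowest with TL2766, COL1A2 at 41.8, 32.1 and 28.5 and DES at 2531, 2223 and 2181, in the same order of arrays. The ACTA2 values lie in the order that the antiviral genes also show, but the sign of its log2 difference between the lactobacillus arrays turned over the alternative settings (-0.07 to 0.19). The part of these markers in the antiviral values was not tested. In bulk RNA, fewer cells of a type and less RNA per cell cannot be told apart.

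All 24 probes were well above background on all 3 arrays, and none had a saturated pixel. The highest mean signal, for ISG15, was 358022 against a saturation value of 778908. A scaled intensity is the processed intensity after division by the array's 75th percentile and multiplication by 481, the geometric mean of the 3 percentiles. The scanner's own error for each of these spots was 10.0% to 10.2%. Brightness also depends on how each probe binds, so values are compared between arrays for 1 probe and not between genes. Where a gene has several probes, the brightest stands for it. Where 3 scaled intensities are given together, they are those without lactobacilli, with TL2937 and with TL2766, in this order, and a pair of log2 differences gives TL2937+ETEC minus ETEC first and TL2766+ETEC minus ETEC second.

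Cells given TL2937 before the challenge had lower signals for all 10 antiviral genes than cells given no lactobacilli. The median log2 difference was -0.60, a 1.51-fold lower signal, and single genes lay between -0.94 for OASL and -0.17 for MX2. At 1.2-fold or more, 8 of the 10 genes were lower on the TL2937+ETEC array, against 12.6% of all 4263 genes measured on both arrays, and 0 were higher, against 7.13%. At 1.5-fold, 5 were lower, against 2.23% of genes, and 0 reached 2-fold, which 0.399% of genes did in either direction. Because the genes were chosen with this contrast in view, the shares over all genes are printed for scale and nothing is read from them, here or below. With the 75th percentile taken over detected probes these shares were 9.88% lower and 9.43% higher. All genes together had a median of -0.04.

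Cells given TL2766 lay between the other arrays. Their median log2 difference from the ETEC array was -0.23, a 1.17-fold lower signal, and 4 of 10 genes were at least 1.2-fold lower, against 8.92% of 4239 genes, while 0 were higher, against 8.04%. The 4 genes were IFI44, OASL, PARP14 and OAS2. With spike-in scaling the shares of genes were 15.6% lower and 4.74% higher, and 6 of the 10 were lower. None of the 10 was 1.5-fold lower, against 1.46% of genes, or 2-fold different, against 0.59%, and all genes together had a median of -0.0009. Both differences use the same ETEC array, so they are not independent of each other and are given side by side.

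The lactobacillus arrays were also compared directly. The 10 genes had a median log2 difference of 0.35 for TL2766+ETEC minus TL2937+ETEC, a 1.28-fold higher signal. At 1.2-fold or more, 6 genes were higher on the TL2766+ETEC array, against 7.28% of 4274 genes, and 0 were lower, against 4.31%. With spike-in scaling these shares of genes were 4.31% and 7.49%, and 5 of the 10 genes were higher. OAS2 was only just counted among the 6, at 1.2007-fold. OAS1 and OASL were more than 1.5-fold higher, as were 1.08% of genes. None was 1.5-fold lower, against 0.398%, or 2-fold different, against 0.281%. Since each pair of comparisons shares an array, the direct difference adds no measurement to the other differences.

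For each of the 10 genes the order of the arrays was ETEC highest, TL2766+ETEC in the middle and TL2937+ETEC lowest. Over the 4215 genes measured on all 3 arrays, 42.3% were highest on the ETEC array and 47.6% were lowest on the TL2937+ETEC array. The share of genes with the whole order was not counted. Between TL2766+ETEC and ETEC, 6 of the 10 differences exceeded the median spread of repeat spots and 6 exceeded the scanner's combined error. ISG15, MX1, MX2 and RSAD2 did not exceed either. Between TL2937+ETEC and ETEC, 10 exceeded the spread of spots and 9 the scanner's error, with MX2 as the exception. In the direct comparison the counts were 10 and 8. The share of all genes beyond these limits was not counted, so nothing is read from these counts. Over all genes, the lower quartile of the log2 difference for TL2937+ETEC minus ETEC was -0.16, itself beyond the median spread of 0.13.

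**Figure D1:**
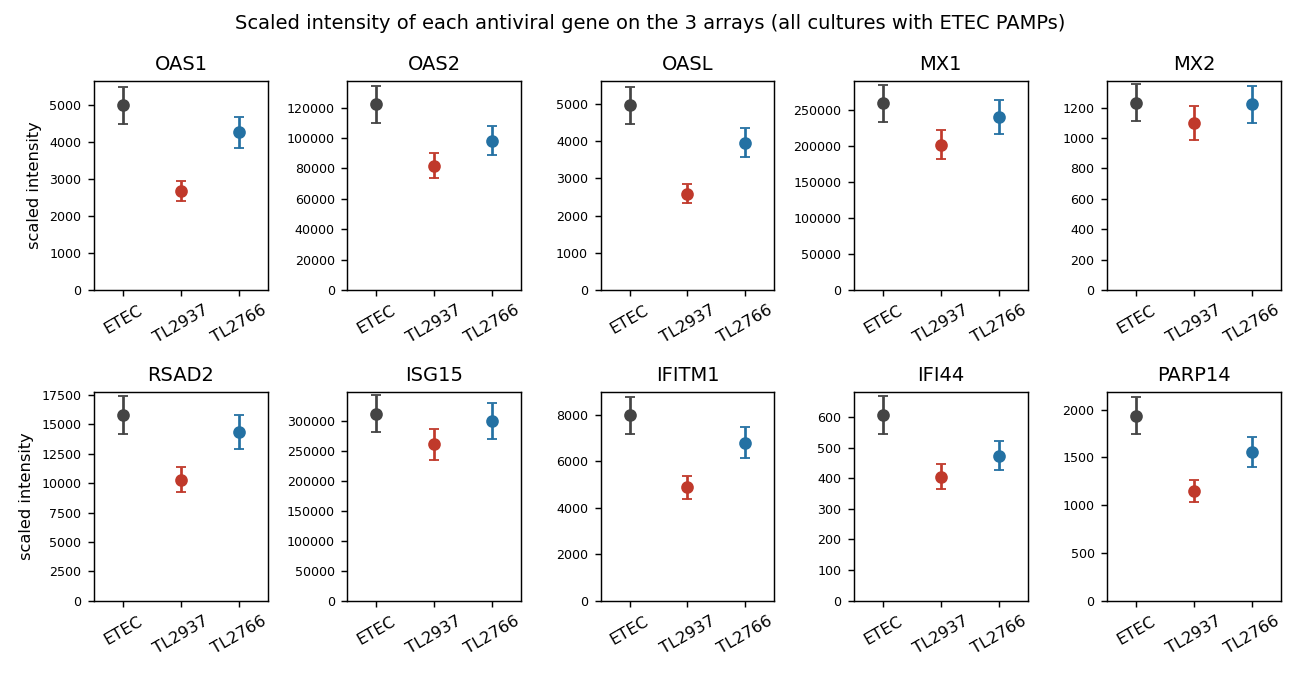
Scaled intensity, on a linear axis from 0, of the probe that stands for each gene on the ETEC, TL2937 (TL2937+ETEC) and TL2766 (TL2766+ETEC) arrays. Points are single arrays and bars are the scanner's error of about 10.0%; each gene is lowest on the TL2937+ETEC array, with OASL at 4962, 2585 and 3958.

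The OAS genes encode or resemble 2-5A synthetases, enzymes that are switched on by double-stranded RNA and make short oligoadenylates that activate the nuclease RNase L. OAS1, the smallest of the active enzymes, had scaled intensities of 5002, 2677 and 4268. It was 1.87-fold lower with TL2937 and 1.17-fold lower with TL2766 than on the ETEC array. Its other probe read 1367, 763 and 1121, with log2 differences of -0.84 and -0.29 beside -0.90 and -0.23 for the brighter probe. The pair is shown because it reads different stretches of the OAS1 transcript and gave nearly the same difference; capitals mark the letters AATAAA.
OAS1 brighter probe: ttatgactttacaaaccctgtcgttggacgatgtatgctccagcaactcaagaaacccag
OAS1 dimmer probe: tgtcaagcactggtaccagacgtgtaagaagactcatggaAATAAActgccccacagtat

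OASL encodes a 2-5A synthetase relative with ubiquitin-like domains that acts with the RNA sensor RIG-I. Its single probe read 4962, 2585 and 3958. It was 1.92-fold lower with TL2937, the furthest of the 10 genes, and 1.25-fold lower with TL2766. OAS1 and OASL thus had similar differences in both comparisons. In the RefSeq table of assembly Sscrofa11.1 they lie on the same chromosome with 37 protein-coding genes between them, while OAS2 is the direct neighbour of OAS1.

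OAS2, the synthetase with a doubled enzyme domain, had the most probes, 6. The brightest read 122265, 81946 and 98391 and was 1.49-fold lower with TL2937 and 1.24-fold lower with TL2766. Over its 6 probes the log2 difference for TL2937+ETEC ran from -0.58 to -0.35 and for TL2766+ETEC from -0.32 to -0.18, so all 6 had the same sign in each comparison. On the ETEC array they read from 472 to 122265, and by their mean scaled intensity over the 3 arrays the brightest was 249-fold above the dimmest. Over all 2790 genes with several probes the median span, by mean log2 level, was 5.76-fold, and the 95th percentile was 189-fold. The differences of OAS2 with TL2937 were smaller than those of its neighbour OAS1 on every probe.

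The brightest OAS2 probes are near copies of each other. The second is the probe named only by its description, and it read 108930, 74193 and 88887, with log2 differences of -0.55 and -0.29. Shifted by 1 base, 55 of 59 aligned bases are identical, and the substitutions are T13C, T46G, T54C and A55G, counted from the 5′ end of the brightest probe. These probes are counted separately among the 24, although they read nearly the same letters. Stretches of 30 bases from each show the shared letters around AATAAA. The next lines give OAS2 probes that share no stretch of 20 bases with any other probe. They read 3593 and 472 on the ETEC array and had log2 differences for TL2937+ETEC of -0.58 and -0.49. The remaining OAS2 probes, at 3702 and 2146, are not shown and had the smallest differences, -0.39 and -0.35.
OAS2 brightest probe, bases 27 to 56: ggtatcctctatAATAAAatgtgattgtac
OAS2 probe named by description, bases 28 to 57: ggtatcctctatAATAAAaggtgattgcgc
OAS2 probe reading 3593: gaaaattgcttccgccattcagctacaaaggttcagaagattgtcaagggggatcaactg
OAS2 probe reading 472: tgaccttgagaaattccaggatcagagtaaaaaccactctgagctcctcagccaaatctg

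The letters AATAAA, the usual polyadenylation signal near the end of a transcript, were searched on the strand the array file prints. They were in 5 of the 24 probes (20.8%), against 9.6% of all 43603 probes. Among genes with several probes, 14.7% of the brightest probes and 6.11% of the others held them. The probes with these letters belong to OAS1, OAS2, MX1 and OASL. A match is a description of the probe and marks no site.

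MX1 and MX2 encode dynamin-like GTPases that assemble on viral nucleocapsids. They are direct neighbours in the Sscrofa11.1 table. MX1 read 258660, 201712 and 239671, which is 1.28-fold lower with TL2937 and 1.08-fold lower with TL2766. Its 5 probes spanned 32.1-fold in brightness, yet their log2 differences for TL2937+ETEC lay between -0.46 and -0.36, and those for TL2766+ETEC between -0.16 and -0.11. All 5 probes had the same sign in each comparison. With TL2937 the brightest, which stands for the gene, had the smallest difference and the dimmest had the largest. The dimmest MX1 probes, at 9676 and 8179 on the ETEC array, are shown for this, with log2 differences of -0.46 and -0.44. A brighter MX1 probe, at 152330, and the OASL probe hold AATAAA, and 30 bases of each are given.
MX1 probe reading 9676: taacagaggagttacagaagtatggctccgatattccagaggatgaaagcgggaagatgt
MX1 probe reading 8179: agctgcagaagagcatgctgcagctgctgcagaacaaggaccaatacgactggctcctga
MX1 probe reading 152330, bases 26 to 55: tcttttatttgtAATAAActtggttctacc
OASL single probe, bases 25 to 54: taacaattcaggAATAAAtaatctttgttc

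MX2 was the gene whose probes agreed least. Its brightest probe read 1233, 1098 and 1221, and its second read 990, 902 and 990. Both lay within 1.2-fold of the ETEC array, with log2 differences of -0.17 and -0.13 for TL2937+ETEC and of -0.015 and -0.00036 for TL2766+ETEC. The third probe read 797, 532 and 736, which gave -0.58 and -0.11. MX2 thus counts as at least 1.2-fold lower with TL2937 by 1 probe of 3.

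**Figure D2:**
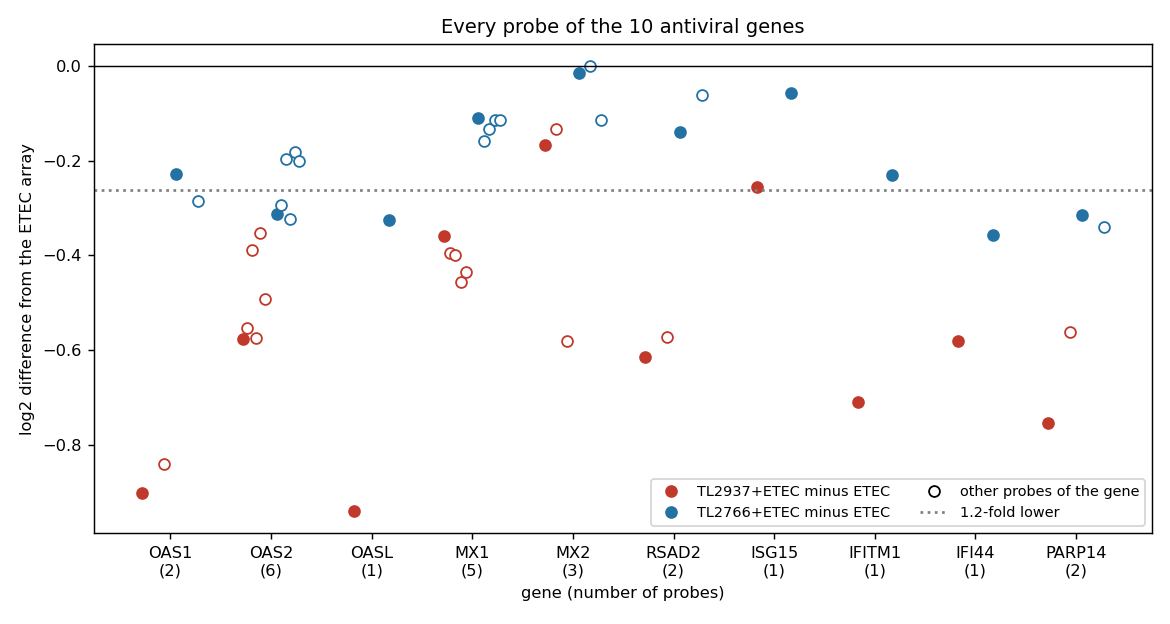
Log2 difference from the ETEC array for every probe of the 10 genes (24 probes, their number per gene in brackets), in red for TL2937+ETEC and blue for TL2766+ETEC. Filled points stand for the gene and open points are its other probes. At or below the dotted line at 1.2-fold lower lie 21 red and 8 blue points, and the 3 MX2 probes spread most in red. By their brightest probes, 12.6% and 8.92% of all genes were at least 1.2-fold lower.

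RSAD2, or viperin, is a radical SAM enzyme that makes a chain-terminating nucleotide against viral polymerases. It read 15788, 10307 and 14339, which is 1.53-fold lower with TL2937 and 1.10-fold lower with TL2766. Its second probe read 2480, 1668 and 2376, with log2 differences of -0.57 and -0.06. When TL2766 was given, RSAD2 was nearer to the ETEC array than to the TL2937+ETEC array, as were all the other genes except OAS2 and IFI44. The share of all genes of which this is true was not counted, so nothing is read from it.

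ISG15 encodes a ubiquitin-like protein that is attached to other proteins during the interferon response. Its single probe read 312129, 261257 and 299861, with log2 differences of -0.26 and -0.058. It was 1.19-fold lower with TL2937, just short of the 1.2-fold count, and 1.04-fold lower with TL2766. The ISG15 probe is shown because the gene has no other.
ISG15 single probe: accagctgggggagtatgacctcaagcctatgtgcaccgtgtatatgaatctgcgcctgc

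IFITM1 encodes a membrane protein that hinders fusion of enveloped viruses. Its single probe read 7977, 4877 and 6803, which is 1.64-fold lower with TL2937 and 1.17-fold lower with TL2766. The probe lists a pair of transcripts in the array file, and IFITM1 has IFITM3, a close relative, as its direct neighbour, so reading of a relative by this probe was not tested. PARP14, a mono-ADP-ribosyltransferase, read 1938, 1148 and 1558, which is 1.69-fold and 1.24-fold lower. Its dimmer probe read 197, 134 and 156, with log2 differences of -0.56 and -0.34. IFI44, an interferon-induced protein whose direct neighbour is its relative IFI44L, read 606, 405 and 474, with log2 differences of -0.58 and -0.36. The second of these was the largest of the 10 genes with TL2766, at 1.28-fold lower.

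Over all 24 probes the median log2 difference was -0.56 for TL2937+ETEC and -0.19 for TL2766+ETEC, and 21 and 8 probes were at least 1.2-fold lower. By their brightest probes, 12.6% and 8.92% of all genes were, and the share over all probes of the array was not counted. The 14 probes that do not stand for a gene had medians of -0.47 and -0.17. All 24 probes were below 0 in both comparisons, where 59.9% and 50.2% of all genes were. In the direct comparison 0 of the 24 were below 0, against 34% of genes. Probes of a gene share its RNA and are not replicates of the treatment.

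**Figure D3:**
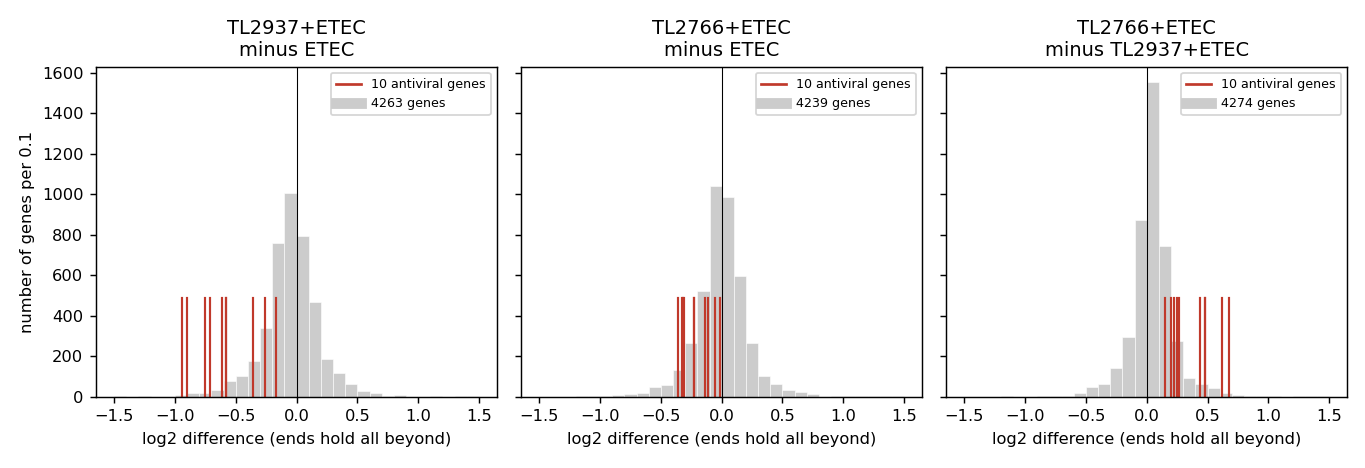
Number of genes per 0.1 of log2 difference for each comparison (grey, 4263, 4239 and 4274 genes well above background on both arrays, with values beyond 1.5 in the end bins) and the 10 antiviral genes (red lines, height without meaning). The red lines lie to the left of 0 in the first and second panels, with medians of -0.60 and -0.23, and to the right in the third, with a median of 0.35.

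The rest of the interferon pathway was described from lists of genes by role, none of which holds any of the 10. For scale, 12.6% of all genes were at least 1.2-fold lower and 7.13% higher with TL2937, and 8.92% and 8.04% with TL2766. Of 11 listed interferons, 5 were on the array and 2 were measured in both comparisons with ETEC. IFNB1, interferon beta, read 34.4, 35.2 and 43.3. IL29, interferon lambda 1, read 49.8, 55.0 and 55.8. Neither was lower on a lactobacillus array than on the ETEC array, and IFNB1 was at least 1.2-fold higher with TL2766, a log2 difference of 0.33 that ran from 0.11 to 0.35 over the alternative settings. IFNA1, IFNE and IFNG were not well above background on the ETEC array. The lowest detected scaled intensity on any array was 11.6 to 12.9, so the measured interferons lay close to the limit.

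Of 5 receptor genes measured, 0 differed 1.2-fold or more from ETEC with either strain, and their medians were -0.13 and -0.03. Over the alternative settings 0 to 2 were lower with TL2766. IFNAR2, a chain of the type I receptor, read 233815, 223038 and 228762, and its log2 difference with TL2937 changed sign between settings (-0.08 to 0.03). IFNGR1 and IFNGR2, the interferon gamma receptor chains, had log2 differences for TL2937+ETEC of -0.14 and -0.13, and IL10RB, shared by the lambda receptor, had -0.21.

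Of 13 signalling and transcription factor genes, 4 were at least 1.2-fold lower with TL2937, against 12.6% of genes, and 0 with TL2766, against 8.92%. Their medians were -0.16 and -0.04. Over the alternative settings 3 to 4 were lower with TL2937, and 0 to 2 were lower and 0 to 1 higher with TL2766. STAT2, a transcription factor of the type I and type III pathways, read 6195, 4328 and 5335, with log2 differences of -0.52 and -0.22. IRF7, the factor that amplifies type I interferon production, read 8314, 5765 and 8068, with -0.53 and -0.04. IRF8 had -0.40 and -0.22 from a dim probe at 26.7 on the ETEC array. The other 9 genes were within 1.2-fold, among them IRF9, JAK1 and TYK2, which were picked outside the rule for names given below.

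Of 8 sensor genes measured for TL2937+ETEC, 5 were at least 1.2-fold lower and 1 higher, against 12.6% and 7.13% of genes. Their median was -0.36. For TL2766+ETEC, 1 of 7 was lower, against 8.92% of genes, or 0 to 4 over the alternative settings. The median was -0.10. DDX58, which encodes the RNA sensor RIG-I, read 3489, 2345 and 3177. IFIH1, its relative MDA5, read 4107, 3143 and 3832, and TLR3, the endosomal sensor of double-stranded RNA, read 3824, 2636 and 3234. IFI16, a DNA sensor, read 116, 71.6 and 96.8, or -0.70 and -0.27. The gene that was higher was TMEM173, which encodes STING, at 15.2 and 18.5, near background; it was named after its value was seen.

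Of 20 other interferon-induced effectors measured, 19 were at least 1.2-fold lower with TL2937, against 12.6% of genes, and 0 higher, against 7.13%. Their median was -0.46. With TL2766, 3 were lower, against 8.92%, and 1 higher, against 8.04%, with a median of -0.18. That count of 3 was 1 to 11 over the alternative settings, while the count of 19 with TL2937 was 17 to 19. LGALS9, a galectin, read 28603, 15203 and 23758, with log2 differences of -0.91 and -0.27. The guanylate-binding proteins GBP2 and GBP4 had -0.67 and -0.61 with TL2937, and IFIT1, which binds foreign 5′ RNA ends, had -0.58. The exception with TL2937 was TRIM26, named after its value was seen, at 224, 244 and 274, which was also the gene higher with TL2766. These genes, like the 10, were listed with earlier results of these arrays known, and all share the same 3 cultures.

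Of 7 reference genes measured, 1 was at least 1.2-fold lower with TL2937 and 0 with TL2766, with medians of -0.12 and 0.0043. Over the alternative settings 1 to 2 were lower with TL2937 and 0 to 1 with TL2766. It was B2M, the light chain of MHC class I, at 178685, 139084 and 160694 (-0.36 and -0.15), and B2M is itself interferon-inducible. ACTB, beta-actin, had -0.26 and -0.20, and GAPDH had -0.15 and -0.13. The difference of ACTB with TL2937 was as large as that of ISG15.

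**Figure D4:**
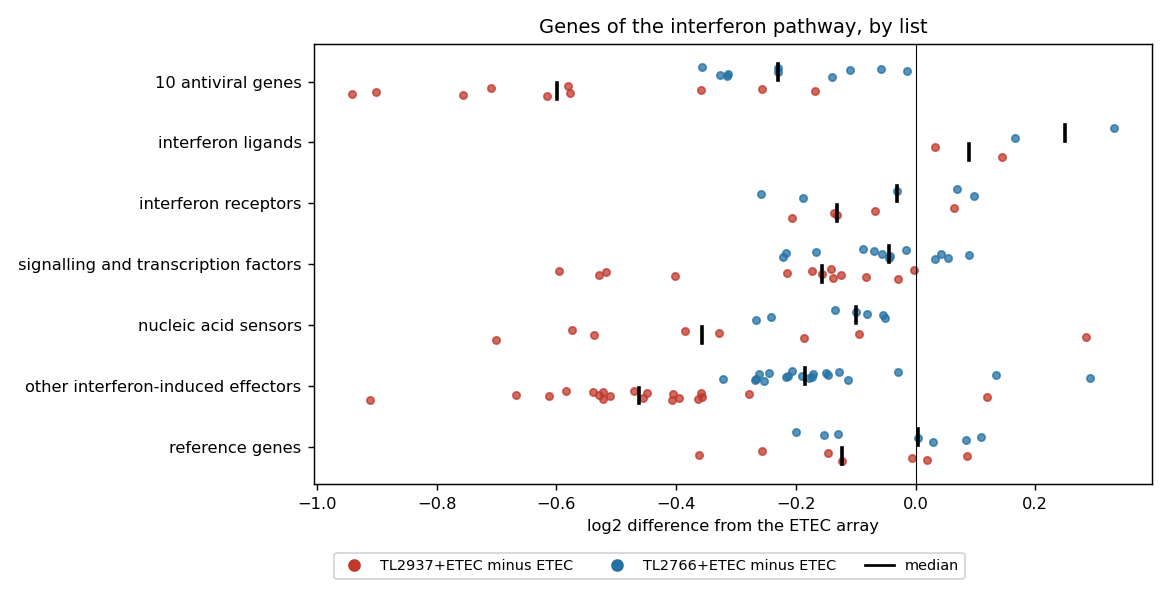
Log2 difference from the ETEC array of the genes well above background on both arrays, by list, in red for TL2937+ETEC and blue for TL2766+ETEC; black bars are medians. The antiviral genes (median -0.60) and the other interferon-induced effectors (-0.46) lie furthest left in red, the receptors (-0.13) and reference genes (-0.12) near 0.

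The genes with the pattern most like the 10 were sought outside them and the lists, by the distance of their pair of log2 differences from the median pair of the 10, over the 3 arrays. The nearest was ISG12(A), an interferon-inducible gene of the IFI27 family, which read 276880, 180654 and 235357, with log2 differences of -0.62 and -0.23 and a distance of 0.019. SLC6A17, C5, ZNF711 and RNASE4 followed at distances of 0.023 to 0.045. SLC6A17, C5 and ZNF711 were dim, at 27.0, 32.8 and 36.6 on the ETEC array, and RNASE4 was at 528. In all, 18 genes (0.434%) lay within 0.1 of the median pair.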

How the data were processed

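Per the labels' protocols, 200 ng of RNA from each of 3 cultures was labelled with Cy3 for 1-colour Agilent arrays of pig transcripts. Feature Extraction 10.7.3.1 produced the deposited processed intensity, with a background subtracted, per the file headers; no genome build is given in the sources used here. The authors' value table held the same intensity, rounded.

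The log2 of the processed intensity was taken and each array's 75th percentile subtracted. Controls were dropped, as were spots marked as outliers (8, 9 and 4 on the respective arrays), and repeat spots were averaged. Names came from the array and from a RefSeq table (assembly Sscrofa11.1): 12105 of 43603 probes had a symbol, 9937 from the array's gene name, 2095 through an accession and 72 through a synonym. A further 131 probes whose description holds MX1 only as the strain name of another organism were left out. A gene was its brightest probe, and measured meant well above background on both arrays. Differences of 1.2-fold, 1.5-fold and 2-fold were counted and none was tested. The rule for names was all 10 genes, up to 4 genes per list by size of difference for TL2937+ETEC, and the 5 nearest genes. A gene that this rule names is not reported here. The 10 genes, the lists and the thresholds were chosen with earlier results of these data known. Alternatives were normexp background correction (offset 50), scaling by spike-ins, the median, quantiles, cyclic loess or the percentile of detected probes, the authors' table, the mean of all probes, outlier spots kept, no background filter and a 1.5-fold threshold. The differences were tested on simulated probe levels, where their medians were checked against planted folds. Every probe of a gene got the same fold, so the choice of a gene's probe could not fail there. The counts were printed but not checked, and the naming, spot filters and scaling were not tested. The work used limma 3.58.1 in R 4.3.3, and pandas 2.3.3 in Python 3.11.15.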

Additional observations from a re-analysis of the deposited data

How the results depend on the processing

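The median of the 10 genes kept its sign under all 10 alternative settings in each comparison: -0.63 to -0.55 for TL2937+ETEC minus ETEC, -0.32 to -0.22 for TL2766+ETEC minus ETEC, and 0.27 to 0.37 for TL2766+ETEC minus TL2937+ETEC. Each of these stayed within the median spread of repeat spots of the reported value, as did all 100 values of single genes in each comparison with ETEC. With TL2937 all 100 were below 0 (-0.95 to -0.11). With TL2766 99 were (down to -0.45), and ISG15 was at 0 after quantile normalization. Some settings could hardly move these values. All 24 probes were well above background, so dropping that filter left the medians unchanged. The authors' table holds the same intensity, rounded, and keeping outlier spots gave a median of -0.599 beside -0.598 with TL2937. Scaling by the median, spike-ins or detected probes shifts all genes of an array by the same amount. The count of genes at least 1.2-fold lower was 7 to 9 with TL2937 and 3 to 6 with TL2766, the 6 coming from spike-in scaling. Over all genes that share was 8.69% to 18.1% with TL2937 and 5.08% to 15.7% with TL2766, lowest with normexp and highest without the background filter. At a 1.5-fold threshold the count was 5 with TL2937 and 0 with TL2766, against 2.23% and 1.46% of genes. In either direction, 5 and 2 genes passed 1.5-fold with TL2937 and in the direct comparison, where 0 passed 2-fold. Of all genes, 2.23% were 1.5-fold lower and 1.15% higher with TL2937, and 0.398% and 1.08% in the direct comparison. The count at least 1.2-fold higher in the direct comparison was 5 to 6 over the alternative settings, against 3.21% to 12.2% of genes. Nothing is read from these counts. No scaling moved the median of all genes by more than 0.09. The list medians kept their sign against ETEC for the signalling factors, sensors and other effectors; that of the interferons ran from -0.10 to 0.15 with TL2937 and that of the reference genes from -0.08 to 0.03 with TL2766. No paired analysis was possible because each group has 1 array, and no replicate could be left out. The spread between cultures is unknown, so no difference here can be set against it.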
